A study of Mus musculus with 6 samples.

Results

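Polycomb genes encode a pair of chromatin-modifying assemblies that keep developmental genes silent, and 10 of them were examined here in control and RTF1-deficient mouse Th17 cells. The 10 were the catalytic and core genes of Polycomb repressive complex 2 (PRC2: Ezh1, Ezh2, Eed, Suz12) with its cofactor Jarid2, and 5 genes of Polycomb repressive complex 1 (PRC1: Rnf2, Bmi1, Pcgf1, Cbx2, Cbx7). They were taken by symbol from a table of 31017 genes, and each passed the filter on low counts, as did 14268 genes in all. RNA sequencing had been performed on Th17 cells differentiated in culture, 3 libraries from control cells (genotype WT) and 3 from RTF1-deficient cells (genotype KO). The study asked what loss of RTF1, a partner of elongating RNA polymerase II that promotes ubiquitination of histone H2B, does to these cells. How the allele was removed, and whether replicates came from separate animals, is not given in the sources used here, so p-values measure the spread between these libraries.

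PRC2 methylates histone H3 at lysine K27 through its catalytic subunit, EZH2 or EZH1, which needs EED and SUZ12 for activity. PRC1 attaches ubiquitin to histone H2A through a RING subunit, RNF2 or RING1, paired with 1 of several PCGF proteins, and its canonical forms bind the PRC2 mark through a CBX protein. In T cells EZH2 is the form typical of dividing cells and EZH1 that of resting ones, and EZH2 is known for restraining cytokine genes of other helper lineages.

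Total counts ranged from 16489813 to 51271226 per library. Levels are given as CPM, counts scaled to a common library total with TMM factors, and per length as RPKM, which is CPM per kilobase of exon. A gene was called when edgeR's quasi-likelihood test gave a Benjamini-Hochberg adjusted p under 0.05 over all tested genes. Rtf1 held 94.0, 91.2 and 88.3 CPM in control replicates 1, 2 and 3 and 45.3, 30.4 and 26.2 CPM in KO, so 37.2% of the control mean remained. The summed level of 10 Th17 and T cell markers was 3184 to 3699 CPM in control and 1574 to 2196 in KO. Summed over 5 markers each, B cell genes lay at 1.24 to 3.09 and 1.74 to 2.62 CPM, CD8 and NK genes at 7.54 to 11.2 and 6.04 to 10.5, and fibroblast genes at 0.486 to 0.665 and 0.107 to 0.797. Myeloid genes were at 0.784 to 0.790 CPM in control and 1.84 to 3.61 in KO, and erythroid genes at most at 0.114 CPM. Ncr1, Klrb1c, Hba-a2 and Col3a1 had no count in any library, and the part of the other markers in the results below was not tested.

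Of the 10 Polycomb members, 7 were called, 5 lower (Suz12, Ezh2, Jarid2, Cbx2, Pcgf1) and 2 higher in KO (Ezh1, Bmi1). Among all tested genes 46.1% were called, 22.9% lower and 23.2% higher. The median log2 fold change of the members was −0.50, and that of all tested genes was 0.013. The 3 KO libraries lay wholly below the controls for 7 members and wholly above for 2. Of all tested genes, 28% lay wholly below and 29.9% wholly above, 57.9% together. Rnf2 was the member whose groups overlapped. In bulk RNA, fewer cells expressing a gene and less RNA per cell cannot be told apart.

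**Figure D1:**
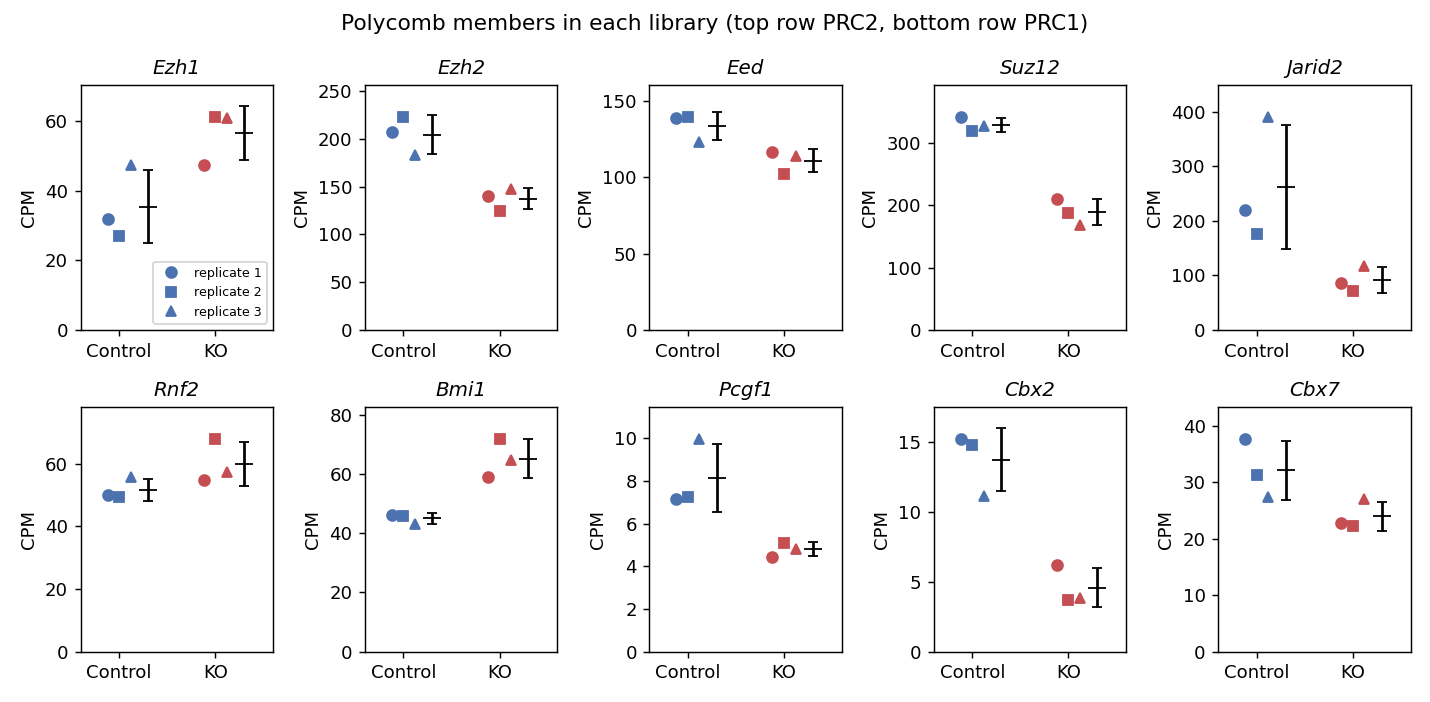
CPM of each member (y axis, linear from 0) in the 3 control libraries (blue) and 3 KO libraries (red), with markers for the replicate number and a black bar for the mean ± SD. Suz12, Ezh2, Eed, Jarid2, Cbx2, Cbx7 and Pcgf1 sat lower in every KO library, Ezh1 and Bmi1 sat higher, and Rnf2 overlapped.

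The 2 catalytic genes of PRC2 moved in opposite directions. Ezh2 (chr6:47530139-47595341, minus strand, GRCm38) held 207, 223 and 183 CPM in control replicates 1, 2 and 3 and 141, 125 and 147 CPM in the KO replicates. Every KO library was below the lowest control, control replicate 3. Ezh2 thus fell from 205 ± 20.04 to 138 ± 11.5 CPM (SD, n = 3), an edgeR log2 fold change of −0.57 (SE 0.122, adjusted p = 0.00547).

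Ezh1 (chr11:101191115-101226463, minus strand), whose product is the weaker methyltransferase, held 31.9, 27.1 and 47.4 CPM in control and 47.6, 61.3 and 61.0 CPM in KO. Control replicate 3 almost reached KO replicate 1. Ezh1 rose from 35.5 ± 10.6 to 56.6 ± 7.82 CPM (SD over 3 libraries), with an edgeR log2 fold change of 0.67 (SE 0.210, adjusted p = 0.0278). Its call was lost without control replicate 1 (0.55, adjusted p = 0.104), control replicate 2 (0.50, 0.0909), KO replicate 2 (0.62, 0.0948) or KO replicate 3 (0.62, 0.0788).

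Compared per length, Ezh2 exceeded Ezh1 by 7.24, 9.16 and 4.31 times in control replicates 1, 2 and 3, and by 3.29, 2.27 and 2.69 times in KO. The groups did not overlap, and Ezh2 stayed the more abundant transcript in all 6 libraries. The log2 ratio of the CPM values averaged 2.56 ± 0.555 for the 3 control libraries and 1.29 ± 0.268 for the 3 KO libraries (SD). The difference was −1.28. The exact permutation test (two-sided) returned p = 0.1, the lowest p available to 3 against 3 libraries, and 0.2 after Benjamini-Hochberg adjustment over the 4 ratios examined.

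**Figure D2:**
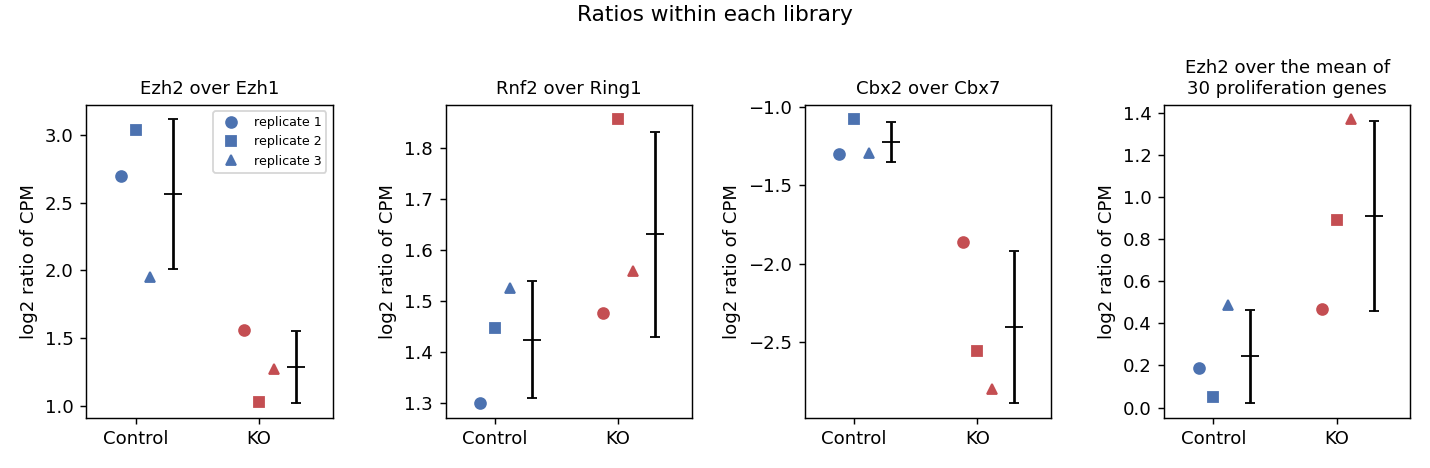
Log2 ratio of CPM values within each library (y axis; scales differ between panels) for Ezh2 over Ezh1, Rnf2 over Ring1, Cbx2 over Cbx7, and Ezh2 over the mean log2 level of 30 proliferation genes, with the mean ± SD in black. Ezh2 over Ezh1 and Cbx2 over Cbx7 were lower in each KO library than in any control, and the other ratios overlapped between groups.

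Proliferation genes also differed between the groups, and Ezh2 is known to be expressed with the cell cycle. A list of 30 cell division and DNA replication genes was chosen with earlier results of these data known. All 30 were called lower in KO, against 22.9% of all tested genes. Their median log2 fold change was −1.22, against 0.013 for all tested genes. Their summed level was 5761 to 9194 CPM in control and 2432 to 4356 CPM in KO. Set against the mean log2 level of this list, Ezh2 stood at 0.19, 0.051 and 0.49 in control replicates 1, 2 and 3 and at 0.47, 0.89 and 1.37 in KO. The difference of 0.67 was toward relatively more Ezh2 in KO, but KO replicate 1 lay within the control range (two-sided exact permutation p = 0.2, adjusted 0.2 over the 4 ratios). Within the pairs of equal replicate number the differences were 0.28, 0.84 and 0.88, each higher in KO (two-sided exact sign-flip p = 0.25, the lowest that 3 pairs allow). The part of proliferation in the Ezh2 result was not tested.

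Suz12 (chr11:79993106-80034123, plus strand), the scaffold of PRC2, held 342, 320 and 327 CPM in control and 211, 188 and 168 CPM in KO. The control libraries were close together, and each KO library lay far below them. Suz12 fell from 330 ± 11.2 to 189 ± 21.2 CPM (SD over 3 libraries), with an edgeR log2 fold change of −0.80 (SE 0.121, adjusted p = 0.00123), or to 57.3% of the fitted control level.

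Eed (chr7:89954654-89980983, minus strand), which reads the methyl mark and activates the enzyme, held 139, 140 and 123 CPM in control and 117, 102 and 114 CPM in KO. All KO libraries were below all controls, by a small margin. The log2 fold change of −0.27 (SE 0.110, 95% interval −0.52 to −0.022) did not pass the threshold (edgeR adjusted p = 0.0711). Without control replicate 3 Eed was called (−0.39, adjusted p = 0.0273), and with upper-quartile scaling too (−0.29, adjusted p = 0.0463).

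Jarid2 (chr13:44729474-44921643, plus strand), a DNA-binding cofactor that helps recruit PRC2, varied most within control of all 10 members, relative to its mean. It held 219, 176 and 390 CPM in control replicates 1, 2 and 3 and 86.3, 70.6 and 118 CPM in KO. Replicate 3 was the highest library of each group. Jarid2 fell from 262 ± 113 to 91.5 ± 23.9 CPM (SD over 3 libraries), with an edgeR log2 fold change of −1.52 (SE 0.299, adjusted p = 0.00385). Within the pairs of equal replicate number the log2 differences were −1.35, −1.32 and −1.73, and without control replicate 3 the fold change was −1.17.

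Promoter windows show the sequences at the start of 2 members that fell (Ezh2, Suz12) and 2 that rose (Ezh1, Bmi1). RefSeq windows on GRCm38.p6, 250 bases before to 50 after a transcript start, were found for 8 of the 10 members. They were searched on both strands for the E2F-type string TTTCGCG, its variant with the letters TTTGGCG and a further variant with the letters TTCCCGC, which mark many cell-cycle genes. The cell-cycle homology element TTTGAA and the CCAAT box were searched too, and no E2F-type match in the printed windows overlaps either of them. Capitals mark the E2F-type matches, and all sequences run 5′ to 3′ on the gene's strand.
Ezh2, chr6:47594981-47595280: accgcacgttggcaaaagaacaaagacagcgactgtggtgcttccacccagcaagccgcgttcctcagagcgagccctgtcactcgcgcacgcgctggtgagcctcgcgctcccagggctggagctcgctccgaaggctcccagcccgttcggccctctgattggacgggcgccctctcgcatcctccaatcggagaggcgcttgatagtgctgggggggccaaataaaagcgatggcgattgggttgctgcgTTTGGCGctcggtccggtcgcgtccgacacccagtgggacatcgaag
Suz12, chr11:79992856-79993155: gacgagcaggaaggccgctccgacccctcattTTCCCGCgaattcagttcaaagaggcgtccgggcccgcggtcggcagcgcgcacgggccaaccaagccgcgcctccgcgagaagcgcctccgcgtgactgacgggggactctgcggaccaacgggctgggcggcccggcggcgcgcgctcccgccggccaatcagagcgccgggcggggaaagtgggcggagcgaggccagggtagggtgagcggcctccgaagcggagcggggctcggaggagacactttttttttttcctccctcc
Ezh1, chr11:101226414-101226713: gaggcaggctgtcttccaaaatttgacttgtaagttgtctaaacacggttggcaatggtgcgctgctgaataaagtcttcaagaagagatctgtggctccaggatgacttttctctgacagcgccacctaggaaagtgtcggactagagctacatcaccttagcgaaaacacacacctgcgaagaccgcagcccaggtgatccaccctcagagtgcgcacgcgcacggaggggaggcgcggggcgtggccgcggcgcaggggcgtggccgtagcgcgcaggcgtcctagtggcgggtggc
Bmi1, chr2:18676768-18677067: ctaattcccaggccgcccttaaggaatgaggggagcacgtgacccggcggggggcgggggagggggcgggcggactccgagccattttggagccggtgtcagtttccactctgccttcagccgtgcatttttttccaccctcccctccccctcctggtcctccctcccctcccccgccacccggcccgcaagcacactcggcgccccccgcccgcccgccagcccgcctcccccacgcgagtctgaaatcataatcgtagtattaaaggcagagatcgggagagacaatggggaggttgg

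The Ezh2 window held 1 E2F-type match (TTTGGCG), starting 4 bases into the transcript, and the Suz12 window held 1 (TTCCCGC), starting 218 bases upstream. These were the 2 of 8 members with such a match, while 6.72% of the 32851 windows in the table held at least 1. None of the 3 E2F-type strings was in a window of Ezh1, Bmi1, Rnf2, Eed, Cbx7 or Jarid2, and Jarid2 was called lower too. Cbx2 and Pcgf1, also called lower, had no window. The printed members that fell are thus the 2 with a match, and a link between these strings and direction was not tested. The element TTTGAA was found in 3 members (Eed, Suz12, Cbx7) and in 17.9% of all windows, and CCAAT in 5 members (Ezh2, Eed, Suz12, Jarid2, Cbx7) and in 37.4%. Jarid2 had 2 windows, and no match says only that these letters are not in the window searched.

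Within PRC1, the RING gene Rnf2 was among the 3 members not called. Rnf2 (chr1:151458004-151500955, minus strand), the main H2A ubiquitin ligase, held 49.9, 49.2 and 55.7 CPM in control and 54.6, 68.0 and 57.4 CPM in KO. KO replicate 1 lay below control replicate 3. The log2 fold change was 0.22 (SE 0.125, 95% interval −0.065 to 0.50, edgeR adjusted p = 0.182). Its paralogue Ring1 held 19.2 ± 1.13 and 19.3 ± 0.472 CPM (SD, n = 3; 0.0074, 95% interval −0.29 to 0.30), a direction that flipped with the scaling. The log2 ratio of Rnf2 to Ring1 was 1.42 ± 0.115 over the controls and 1.63 ± 0.200 over the KO libraries (SD; difference 0.21, two-sided exact permutation p = 0.2, adjusted 0.2).

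Bmi1 (chr2:18677018-18686629, plus strand), also named Pcgf4, encodes a PCGF protein of canonical PRC1. It held 46.3, 45.7 and 42.9 CPM in control and 58.8, 71.9 and 64.6 CPM in KO. All KO libraries lay above a tight control group. Bmi1 rose from 45.0 ± 1.79 to 65.1 ± 6.57 CPM (SD over 3 libraries), with an edgeR log2 fold change of 0.53 (SE 0.118, adjusted p = 0.00637). Other genes, mainly Gm5946, share 16.7% of its 50-base stretches, so the count is uncertain by an amount that was not measured. Gm5946 itself is not among the counted genes.

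Pcgf1 (chr6:83077869-83080855, plus strand), the PCGF protein of a variant PRC1, was a low transcript. It held 7.17, 7.27 and 9.98 CPM in control and 4.44, 5.10 and 4.83 CPM in KO. Each KO library was below each control. Pcgf1 fell from 8.14 ± 1.59 to 4.79 ± 0.331 CPM (SD over 3 libraries), with an edgeR log2 fold change of −0.77 (SE 0.221, adjusted p = 0.0206). The call was lost without KO replicate 1, 2 or 3 (−0.72, −0.81 and −0.77, adjusted p = 0.0550, 0.0550 and 0.0549) and in libraries numbered 1 and 2 alone (−0.60, 0.0845). Pcgf1 shares 15.3% of its stretches with other genes, mainly Gm8930, which is not among the counted genes either.

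Of the 2 CBX members, Cbx2 was called and Cbx7 was not. Cbx2 (chr11:119022962-119031270, plus strand), whose product compacts chromatin, held 15.3, 14.8 and 11.1 CPM in control and 6.19, 3.71 and 3.81 CPM in KO. No KO library came near a control. Cbx2 fell from 13.7 ± 2.26 to 4.57 ± 1.40 CPM (SD, n = 3), an edgeR log2 fold change of −1.58 (SE 0.255, adjusted p = 0.00162) and the lowest among the members.

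Cbx7 (chr15:79915807-79971119, minus strand), another reader of the PRC2 mark, held 37.7, 31.2 and 27.3 CPM in control and 22.7, 22.2 and 26.9 CPM in KO. The groups were separated by a narrow gap between control replicate 3 and KO replicate 3. The log2 fold change of −0.42 (SE 0.158, 95% interval −0.78 to −0.062) was not called (edgeR adjusted p = 0.0556). Cbx7 passed with the replicate number as a block (−0.42, adjusted p = 0.0480), by DESeq2 (−0.43, 0.0456), with upper-quartile scaling (−0.44, 0.0492), without control replicate 3 (−0.58, 0.0106) and in libraries numbered 1 and 2 alone (−0.62, 0.00960). The log2 ratio of Cbx2 to Cbx7 averaged −1.22 ± 0.127 over the controls and −2.41 ± 0.486 over the KO libraries (SD). The difference of −1.19 came with non-overlapping groups (two-sided exact permutation p = 0.1, adjusted 0.2).

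The members were ordered by level per length in each group. In control, Suz12 was highest at 66.7 ± 2.27 RPKM (SD, n = 3), above Eed (35.0 ± 2.43), Ezh2 (30.6 ± 3.002) and Jarid2 (26.96 ± 11.6), whose ranges overlapped one another. Rnf2 (12.5 ± 0.861) and Bmi1 (11.3 ± 0.451) followed. Cbx7 (4.95 ± 0.805), Pcgf1 (4.94 ± 0.966) and Ezh1 (4.77 ± 1.42) could not be ordered, and Cbx2 (3.23 ± 0.530) was lowest.

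In KO, the order from the top was Suz12 (38.2 ± 4.29 RPKM), Eed (29.0 ± 1.96), Ezh2 (20.6 ± 1.72), Bmi1 (16.4 ± 1.65) and Rnf2 (14.5 ± 1.70), with overlap between Bmi1 and Rnf2 only. Jarid2 (9.41 ± 2.46) had moved below both and overlapped Ezh1 (7.61 ± 1.05). Cbx7 (3.69 ± 0.402), Pcgf1 (2.91 ± 0.201) and Cbx2 (1.07 ± 0.329) were the lowest, in that order and without overlap (SD, n = 3 throughout).

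Across 14 other ways of fitting the data, 6 of the 10 members kept both their call and their direction: Ezh2, Suz12, Jarid2, Bmi1 and Cbx2 called, and Rnf2 not called. Ezh1, Eed, Pcgf1 and Cbx7 changed call in at least 1, and none of the 10 changed direction. Ezh2 ranged from −0.70 to −0.49, Suz12 from −0.89 to −0.72, Jarid2 from −1.75 to −1.17, Bmi1 from 0.44 to 0.62 and Cbx2 from −1.87 to −1.44 on the log2 scale.

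**Figure D3:**
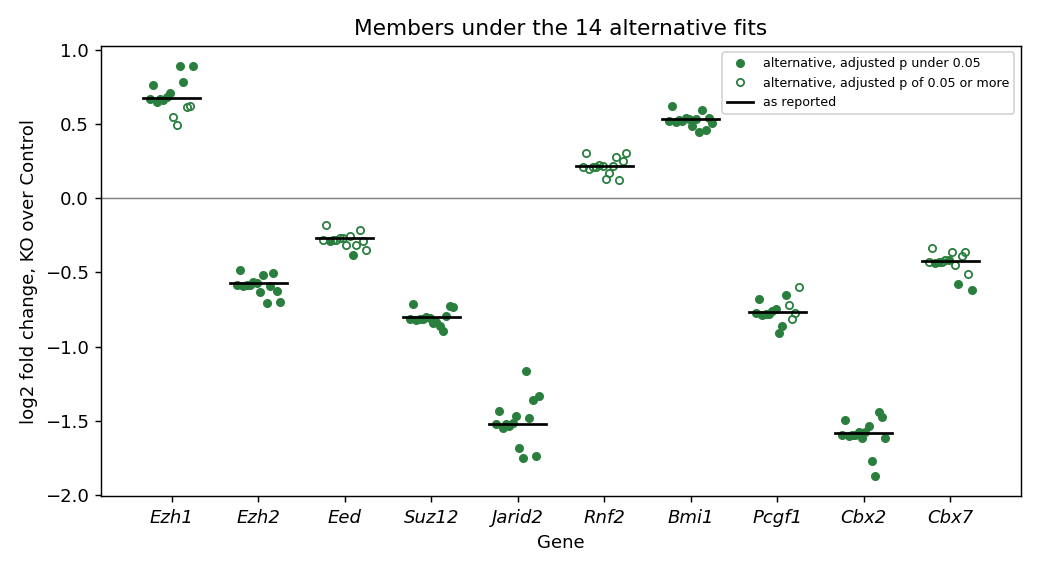
Log2 fold change (y axis) of each member (x axis) as reported (black line) and in 14 alternative fits (filled green where the adjusted p was under 0.05, open otherwise). Every value lies on the same side of 0 as the reported one, and open points appear beside filled ones for Ezh1, Eed, Pcgf1 and Cbx7.

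Of the other PRC2 genes, 9 were tested, of which 4 were called lower and 1 higher, with a median log2 fold change of −0.39. These 5 called genes are 55.6% of the 9, against 46.1% of all tested genes. Rbbp4 (−0.39, edgeR adjusted p = 0.0619) and Rbbp7 (−0.30, 0.236), the histone-binding core, were not called, but were with the replicate block (adjusted p = 0.0148 and 0.0449). Of the 50-base stretches of Rbbp4, 17.2% are found elsewhere in the transcriptome, and of those of Rbbp7, 11.2%. The 3 Polycomb-like proteins PHF1, MTF2 and PHF19 occupy the same position in PRC2, and their genes were called in both directions.

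Phf19 held 34.3, 33.0 and 21.9 CPM in control and 18.2, 12.1 and 11.2 CPM in KO, without overlap, and fell (edgeR log2 fold change −1.10, SE 0.237, adjusted p = 0.00575). Mtf2 fell from 66.8 ± 7.004 to 49.0 ± 7.59 CPM (SD over 3 libraries), with an edgeR log2 fold change of −0.44 (SE 0.147, adjusted p = 0.0351), but not when any of 4 libraries was left out (control replicate 1 or 2, KO replicate 2 or 3) and without TMM factors (−0.35, 0.0844). Phf1 held 7.30, 5.76 and 10.95 CPM in control and 19.97, 27.9 and 32.1 CPM in KO, and rose (1.73, SE 0.268, adjusted p = 0.00139). Phf1 is uncertain, since 39.3% of its exonic bases overlap other genes, mainly Cuta, which itself rose (0.75, adjusted p = 0.00429), and the strand setting of the counting is not given in the sources used here.

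Epop, which limits the activity of one PRC2 form, fell from 27.97 ± 7.60 to 16.01 ± 1.80 CPM (SD over 3 libraries), with an edgeR log2 fold change of −0.81 (SE 0.211, adjusted p = 0.0135), a call lost without KO replicate 2 (−0.73, 0.0626). Aebp2, the partner of Jarid2 in the other form, held 570, 528 and 682 CPM in control and 438, 424 and 427 CPM in KO. The KO libraries were all lower and close together, and Aebp2 fell (−0.46, SE 0.131, adjusted p = 0.0183). Its call was lost without KO replicate 2 (0.0780) or 3 (0.0608) and in libraries numbered 1 and 2 alone (−0.35, 0.0821).

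Among 27 tested PRC1 genes outside the members, 9 were called lower and 6 higher, and the median log2 fold change was −0.0037. The share called, 55.6%, was near the 46.1% of all tested genes. The largest change was that of Rybp, whose product takes the place of a CBX protein in variant PRC1. Rybp held 12.2, 12.7 and 13.5 CPM in control and 47.8, 52.6 and 78.9 CPM in KO, the lowest KO library being far above the highest control. Other genes, mainly Rybp-ps, share 8.93% of its 50-base stretches. Rybp rose by 2.22 on the log2 scale, or 4.65-fold (SE 0.199, edgeR adjusted p = 0.000159). Its paralogue Yaf2, named after its values were seen, fell from 29.1 ± 3.603 to 17.3 ± 2.21 CPM (SD over 3 libraries), with an edgeR log2 fold change of −0.75 (adjusted p = 0.00505).

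The PCGF genes Pcgf2 and Pcgf5 fell, while Pcgf3 and Pcgf6 were not called. Pcgf2, the closest relative of Bmi1, held 11.2, 11.6 and 11.5 CPM in control and 5.81, 5.39 and 6.10 CPM in KO. Both groups were tight, and Pcgf2 fell by 0.99 on the log2 scale (SE 0.173, edgeR adjusted p = 0.00223), the opposite direction to Bmi1. Pcgf5 fell from 153 ± 35.8 to 87.1 ± 7.01 CPM (SD over 3 libraries), with an edgeR log2 fold change of −0.81 (SE 0.166, adjusted p = 0.00458).

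The 3 polyhomeotic genes, whose products polymerise and cluster PRC1, were all called, against 46.1% of all tested genes. Phc2 held 66.4, 70.8 and 67.7 CPM in control and 104, 114 and 122 CPM in KO, and rose (edgeR log2 fold change 0.73, SE 0.107, adjusted p = 0.00105). Phc3 rose from 164 ± 43.0 to 237 ± 7.14 CPM (SD over 3 libraries), with an edgeR log2 fold change of 0.53 (adjusted p = 0.0373), a call lost with each library left out except control replicate 3 and with upper-quartile scaling (0.50, 0.0618). Phc1, named after its values were seen, fell from 18.5 ± 1.05 to 13.1 ± 1.39 CPM (−0.50, adjusted p = 0.0227).

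The CBX genes Cbx6 and Cbx8 were not called by edgeR. Their log2 fold changes were −0.0037 (95% interval −0.26 to 0.25) for Cbx6 and 0.14 (95% interval −0.32 to 0.60) for Cbx8.

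Fbrs, a component of variant PRC1, rose from 91.4 ± 9.55 to 129 ± 13.3 CPM (SD over 3 libraries), with an edgeR log2 fold change of 0.50 (SE 0.126, adjusted p = 0.0117). L3mbtl2 fell (−0.82, SE 0.241, adjusted p = 0.0222) although its groups overlapped, and the call was lost without control replicate 1 or 2 or KO replicate 2 or 3. Scml2 was low, 1.42 ± 0.214 and 0.5995 ± 0.272 CPM (−1.23, SE 0.407, adjusted p = 0.0351), with the call lost in the same 4 fits and in libraries numbered 1 and 2 alone. L3mbtl2 is uncertain, with 17.2% of its exonic bases overlapping Chadl. E2f6 and Mga, not called (adjusted p = 0.0647 and 0.0616), were called with the block (0.0149 and 0.0391).

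**Figure D4:**
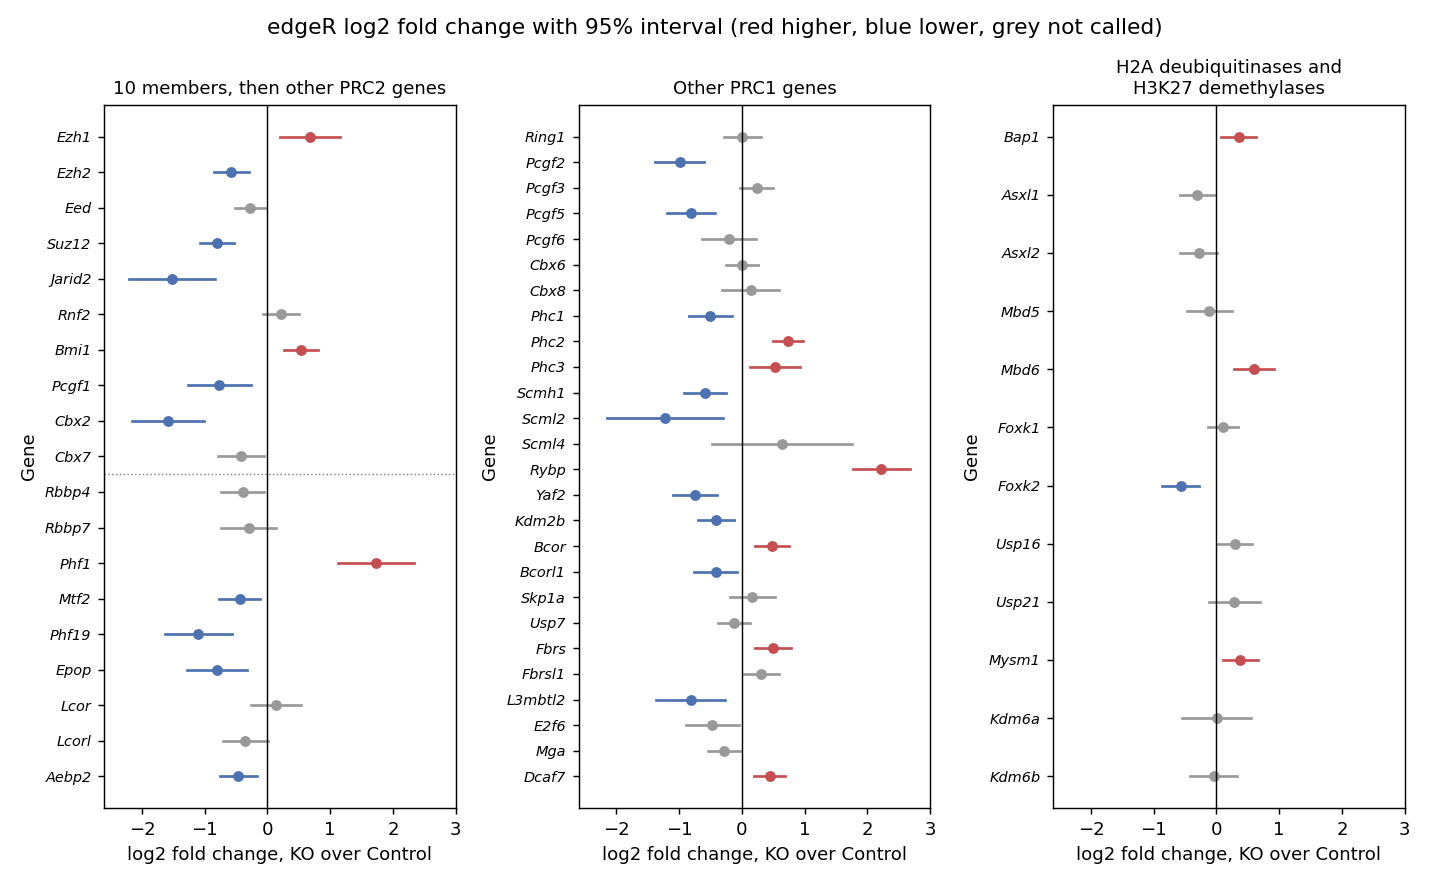
Log2 fold change of KO over control (x axis) with its 95% interval for tested Polycomb-related genes (y axis), coloured red where called higher, blue where called lower and grey where not called; the dotted line separates the 10 members from other PRC2 genes. Rybp at 2.22 and Phf1 at 1.73 lie farthest to the right, and Cbx2 at −1.58 and Jarid2 at −1.52 farthest to the left.

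Of 12 tested genes of the enzymes that oppose Polycomb, 3 were called higher and 1 lower, with a median log2 fold change of 0.052. The share called was 33.3%, against 46.1% of all tested genes. Mbd6, a partner of the H2A deubiquitinase BAP1, rose from 28.2 ± 3.83 to 42.6 ± 2.86 CPM (SD over 3 libraries), with an edgeR log2 fold change of 0.60 (SE 0.139, adjusted p = 0.00811). Foxk2, a DNA-binding partner of the same complex, fell from 122 ± 17.0 to 82.4 ± 5.49 CPM (−0.57, SE 0.130, adjusted p = 0.00735). Bap1 itself (0.36, adjusted p = 0.0413) and the deubiquitinase gene Mysm1 (0.38, 0.0341) were called higher, but each lost its call in 5 of 6 fits with 1 library left out, all but that without control replicate 2 for Bap1 and without control replicate 3 for Mysm1. Without control replicate 3 Bap1 was at 0.21. In all, Bap1 lost its call in 9 of 14 alternatives, among them DESeq2 (adjusted p = 0.0702), DESeq2 size factors (0.0629), any count as filter (0.0634) and libraries numbered 1 and 2 alone (0.0911). Mysm1 lost it in 6 of 14, upper-quartile scaling included (0.0609). Asxl1 and Usp16 were not called in the main fit (adjusted p = 0.0621 and 0.0823) but were called with the block (0.0345 and 0.0386).

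The H3K27 demethylase genes Kdm6a and Kdm6b were not called (0.0018, 95% interval −0.54 to 0.55, and −0.046, −0.41 to 0.32). The X-linked Kdm6a held 101, 102 and 62.5 CPM in control replicates 1, 2 and 3 and 99.998, 104 and 61.4 CPM in KO. Replicate 3 was the low library of each group, and it alone carried more than a trace of Y-linked reads, with 11376 (control) and 5147 (KO) over 4 genes against 1 to 3 elsewhere. Xist had 5 (control) and 1 (KO) counts in replicate 3 and 14668 to 28176 in the other libraries. By these reads the replicates of each group differed in sex, which the main fit did not model.

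Genes that Polycomb classically silences were mostly at or near the floor. Of 39 Hox genes, 13 had no count in any library, 27 had at most 3 counts in every library, and 2 passed the filter. Hoxb4, which passed, stood at 1.69 ± 0.444 CPM in control and 1.53 ± 0.471 CPM in KO (SD, n = 3) and was not called (edgeR log2 fold change −0.15, 95% interval −0.997 to 0.70).

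At the INK4 locus, the best-known Polycomb target in dividing cells, Cdkn2a had 0, 4 and 1 counts in control and 0, 3 and 2 in KO, and Cdkn2b had 1, 3 and 3 and 2, 3 and 1. Both are at the floor of 3 counts, worth 0.0619 to 0.182 CPM depending on the library, apart from the 4 counts in control replicate 2. No difference was detectable at this depth, and the counts cover counting error only.

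The genes whose profile over the 6 libraries was nearest to that of Ezh2 were ranked by the root mean square difference of log2 CPM values, each centred on its own mean, among 9493 genes averaging 5 CPM or more. The nearest 5 were Dnaaf2 (0.029), Pspc1 (0.048), Sms (0.052), Fdft1 (0.053) and Gstt2 (0.053), with log2 fold changes between −0.67 and −0.50. Dnaaf2 was not called (edgeR adjusted p = 0.0534). The ranking spans both groups, so fold changes close to that of Ezh2 follow from it. Among the other members, Cbx7 (0.148, rank 392) and Eed (0.157, rank 506) came closest to Ezh2, before Suz12 (0.200, rank 1178), and Ezh1 was the most distant (0.730, rank 8305).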

How the data were processed

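RNA from mouse Th17 cultures was sequenced in 6 libraries, 3 control and 3 KO. Group and replicate number came from the sample titles, and columns were matched by sample description, leaving 0 columns without a sample. The values the authors deposited are raw counts per gene symbol. STAR, featureCounts, DESeq2 and mm10 are named in the submitters' processing notes, with no versions. Annotation and strand setting are not given in the sources used here.

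KO was compared with control in edgeR 4.0.16 (R 4.3.3) by the quasi-likelihood test with TMM factors, filterByExpr and no covariate. The SE is the absolute log2 fold change over the square root of F. Log2 CPM for ratios used a prior count of 2. The alternatives were DESeq2 1.42.0, other scalings and filters, a replicate block, each library left out, and libraries numbered 1 and 2 alone.

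Libraries of equal number deviated together across genes (correlations 0.270, 0.130 and 0.379). The numbers were therefore read as pairs in the replicate block and the within-pair differences. The main fit and the permutation tests were unpaired. The labels do not say what the numbers mark, and the value for control 2 with KO 1, libraries of unequal number, was 0.204, above the 0.130. Coordinates, lengths and shared 50-base stretches came from GENCODE M21 (GRCm38), promoters from RefSeq (GRCm38.p6).

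The members and lists were chosen with earlier results of these data known. Named were Rtf1, the members, Ring1, and per list up to 4 called genes each way with the largest change and a mean of at least 1 CPM, and the 5 genes with a standard symbol nearest to Ezh2. Rbbp4, Rbbp7, Pcgf3, Pcgf6, Cbx6, Cbx8, E2f6, Mga, Asxl1, Usp16, Kdm6a, Kdm6b, Hoxb4, Cdkn2a and Cdkn2b, Cuta and the genes marked so in the text were named after their values were seen. Some genes that the counts include are not reported here by name.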

Additional observations from a re-analysis of the deposited data

How the results depend on the processing

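With 1 library left out in turn, 5 to 9 of the 10 members were called, 1 to 2 higher and 4 to 7 lower, against 2 and 5 with all libraries, and the loss among those higher was Ezh1. Over all genes the lower calls ran from 2170 (without KO replicate 2) to 3700. The other PRC2 genes gave 1 to 6 lower calls (1 without KO replicate 2, 2 without KO replicate 3), the other PRC1 genes 3 to 6 higher (3 without control replicate 1) and 3 to 10 lower (4 without control replicate 1, 3 without KO replicate 2), and the opposing enzymes 1 to 2 higher and 1 to 2 lower. Without control replicate 3 the calls went up, to 9 members and 7050 genes in all, against 7 and 6574 with all libraries. Control replicate 3 was the only control library with more than a trace of Y-linked reads (11376 counts). Leaving it out left KO replicate 3 without a control of the same pattern. The cause of the shifts in calls, the smaller number of samples and this imbalance included, was not tested. With the replicate block, 8 Polycomb-related genes gained a call and 0 lost one, and the opposing enzymes called lower became 2. The Ezh2 to Ezh1 difference was −1.28 with the replicate block too (exact sign-flip p = 0.25, the smallest possible), and −1.58 to −1.04 with 1 library left out. Ring1 changed sign with DESeq2 size factors (−0.0021), upper-quartile factors (−0.013), the DESeq2 test (−0.0013) and any count as filter (−0.0040), and ran from −0.050 to 0.031 with 1 library left out. Library size as the only scaling moved the median of all genes from 0.013 to 0.10. Depth limits Hox and INK4 genes most.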
